A study of Mus musculus with 14 samples.

Results

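The comparison described here is soleus muscle of Ts1Cje mice against soleus muscle of disomic (WT) littermates. Its members are the arrays whose labels give soleus as the muscle, 8 of the 14 arrays in the series, with 4 per genotype. Ts1Cje mice model Down syndrome: a distal piece of chromosome 16, orthologous to part of human chromosome 21, is present in them in 3 copies instead of 2 through a translocation onto chromosome 12. Both genotypes were on the C57BL/6 background, the controls were littermates with 2 copies of the segment, and the labels gave no treatment, age or sex. The other 6 arrays were EDL (extensor digitorum longus) muscle, 3 per genotype, and they are used below only to set a level or a genotype difference beside that of the soleus. The design counts 4 pairs of Ts1Cje and littermate soleus muscles, and the labels do not say which arrays form a pair. Each array measured RNA of muscle tissue rather than of sorted cells, so that fewer cells of a type and less RNA per cell cannot be told apart.

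The soleus is a postural muscle of the hind limb in which slow oxidative fibres with the myosin Myh7 and fast oxidative fibres with Myh2 prevail, whereas glycolytic fibres with Myh4 dominate the EDL. A muscle fibre type is set by which myosin heavy chain it carries and by matched sets of troponins, calcium pumps and calcium buffers. Calcium signalling through the phosphatase calcineurin and NFAT favours the slow programme, and the segment carries Rcan1, an inhibitor of calcineurin, and Dyrk1a, a kinase that acts on NFAT. The translocation is also known to have removed a small piece of the end of chromosome 12. The line arose in a gene-targeting experiment at Sod1, and the extra copy of Sod1 carries the insertion made there.

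A level below is the log2 signal of a gene's probe relative to the 75th percentile of its array, so that 0 is the 75th percentile, and a difference is Ts1Cje minus WT on that log2 scale with its standard error. A gene is called, and is said to have risen or fallen, at a limma adjusted p under 0.05 (Benjamini-Hochberg over all genes tested). Of 14175 genes tested, 35 were called, which is 0.247%, with 25 higher (0.176%) and 10 lower (0.0705%) in Ts1Cje. All 35 had 4 Ts1Cje arrays on one side of all 4 WT arrays, which the choice by small p favours. Over all genes 6.1% had the Ts1Cje arrays above all WT arrays and 2.29% below. Of the 25 that rose, 20 lay in the trisomic segment, and none of the 10 that fell did. Elsewhere in the genome 5 genes rose, led by Dnah11 on chromosome 12, and the falls were led by the fast fibre genes Myh4, Actn3 and Pvalb. The median difference over all genes was 0.07, and 62.7% of genes were above 0.

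The 8 arrays differed in brightness. Between 43.7% and 52.9% of probes were well above background, the 75th percentile of the signal was 66.3 to 143.8 intensity units, and pairs of soleus arrays correlated at r = 0.975 to 0.989 across genes, which are not independent replicates. Replicate 1 of Ts1Cje had the lowest share of probes well above background and the lowest 75th percentile. It was scanned on the slide that held the EDL arrays, and the other 7 soleus arrays shared the second slide. With the slide as a block, which here equals leaving out that array, 14 genes rose and 4 fell, 17 of them called without the block too. The block ended the calls of 18 genes: Ifnar1, Ifnar2, Runx1, Hmgn1, Smim11, Cfap298, Psmg1, Sh3bgr, A930006K02Rik, Eva1c, Vmac, Mansc1, Vmn2r111, Apol7a, Gm5608, Tbata, Nabp1 and Tlcd4, with adjusted p between 0.055 and 0.13 (limma). A fit of all 8 soleus arrays without the EDL called 2 genes higher and 2 lower, Dnah11, Sod1 and Pvalb among them, and within the second slide alone 1 gene, Dnah11, rose and 0 fell, where 2125 genes had an unadjusted p under 0.05. Ddx3y and Eif2s3y, genes of the Y chromosome, were at levels of 1.82 to 2.60 and 2.59 to 3.11 on all 8 arrays, and Xist was well above background on 0 of them. The sex-linked list of 5 tested genes had a median difference of -0.03 and 0 calls.

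**Figure D1:**
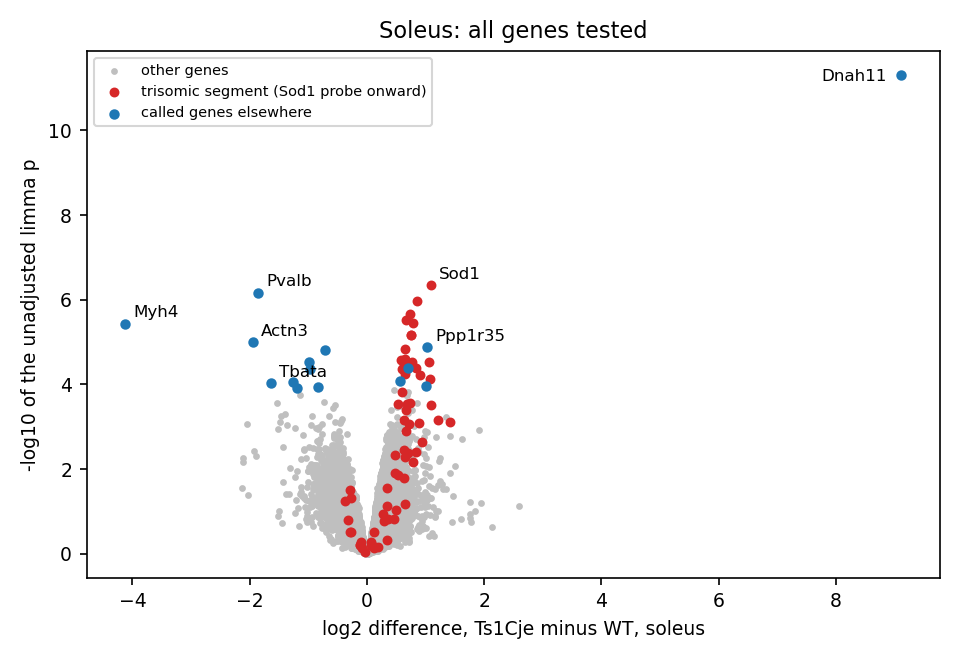
Each point is 1 of the 14175 genes in the soleus, with the log2 difference between Ts1Cje and WT on the horizontal axis and -log10 of the unadjusted limma p on the vertical axis. Red points are genes of the trisomic segment and blue points are the 15 called genes outside it; the segment genes form an arm around a difference of 0.63, Dnah11 stands at 9.11, and Myh4, Actn3 and Pvalb lie at -4.12, -1.95 and -1.86.

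Genes of the trisomic segment formed the largest group of calls. By probe position the segment ran from Sod1 over 8.06 Mb towards the end of chromosome 16 and held 68 tested genes (mm9 coordinates from the deposited annotation). Of these 68 genes, 20 rose (29.4%, against 0.176% of all genes) and 0 fell, 57 were higher and 11 lower in Ts1Cje, and the median difference was 0.63 (1.55-fold), next to 0.58 for a ratio of 3 copies to 2. Of the 64 genes listed by name for the segment 53 were tested, 19 rose and 47 were higher, with a median of 0.65. In 41 of the 68 all Ts1Cje arrays lay above all WT arrays (60.3%, against 6.1% of all genes). Among the 388 tested genes of chromosome 16 before Sod1, 0 were called, 34 were higher and 15 lower at an unadjusted p under 0.05 (9.28% and 4.34% of all genes were), and the median difference was 0.08. The segment defines the strain, so its direction is a check of the labels.

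Sod1 encodes the cytosolic superoxide dismutase that removes superoxide, and it was the segment gene with the smallest p. Its levels were 6.87, 6.94, 7.12 and 6.94 in Ts1Cje replicates 1 to 4 and 5.67, 6.15, 5.92 and 5.77 in WT replicates 1 to 4. The lowest Ts1Cje array stood above the highest WT array, and the difference of 1.09 ± 0.12 (2.13-fold, adjusted p = 0.0032, limma) was past the 1.5-fold of the copy number. This is a difference of RNA at 1 probe. Whether transcripts of the copy with the insertion give active enzyme was not measured. In each of the 8 fits that left out 1 soleus array Sod1 was called. The EDL difference was 0.86 ± 0.14.

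Among genes of RNA processing and chromatin, Son, a nuclear speckle protein that organises splicing, showed the tightest groups. Son was at 4.52, 4.64, 4.63 and 4.58 in Ts1Cje and at 3.96, 3.86, 3.95 and 3.93 in WT, a difference of 0.67 ± 0.08 (adjusted p = 0.0064, limma). No Ts1Cje array came near the WT arrays, and the other 2 kept probes of Son differed by 0.79 and 0.68. Morc3, a chromatin-associated ATPase of nuclear bodies, was at 0.24, 0.11, 0.21 and 0.03 in Ts1Cje and at -0.74, -0.66, -0.54 and -0.45 in WT, a difference of 0.74 ± 0.09 (adjusted p = 0.0062, limma). Hmgn1, which binds nucleosomes and loosens chromatin, rose by 0.66 ± 0.11 from a mean level of 3.98 ± 0.16 (SD, n = 4) to 4.64 ± 0.09. Runx1, a transcription factor that muscle makes after loss of its nerve, rose by 1.06 ± 0.17 (adjusted p = 0.022, limma), from -2.96, -2.36, -2.33 and -2.94 in WT to -1.47, -1.74, -1.63 and -1.51 in Ts1Cje. Its second kept probe differed by 0.28, so the size for Runx1 depends on the probe. Brwd1, a bromodomain protein that reads acetylated chromatin, differed by 0.64 on the probe that stood for it and was not called, while its other 4 kept probes differed by 0.03 to 1.12, 1 of them called over all kept probes (0.79, adjusted p = 0.019, limma).

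Several genes of membrane traffic rose. Synj1, a lipid phosphatase that uncoats endocytic vesicles, was at 1.87, 2.08, 2.15 and 2.05 in Ts1Cje and at 1.20, 1.36, 1.16 and 1.31 in WT, a difference of 0.78 ± 0.10 (adjusted p = 0.0064, limma). Tmem50b, a membrane protein of the secretory pathway, was at 3.27, 3.59, 3.49 and 3.39 in Ts1Cje and at 2.45, 2.69, 2.54 and 2.65 in WT, and rose by 0.85 ± 0.10 (adjusted p = 0.0038, limma). Both genes had all Ts1Cje arrays above all WT arrays. Vps26c, a subunit of the retriever complex that recycles endosomal cargo, rose by 0.75 ± 0.10, and Dop1b, which belongs to a family of Golgi and endosome proteins, rose by 0.76 ± 0.10. Eva1c, a membrane protein that binds the guidance cue Slit, rose by 1.08 ± 0.19 from levels near the limit of detection, where 3 of 4 WT arrays were well above background. Smim11, a small membrane protein, rose by 0.76 ± 0.12.

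Itsn1, a scaffold of the same endocytic machinery as Synj1, went against its neighbours on the probe that stood for it, the brightest of 5 kept probes. That probe was at 7.04, 6.66, 6.05 and 6.76 in Ts1Cje and at 6.90, 6.64, 7.22 and 7.03 in WT, a difference of -0.32 ± 0.21 with overlapping groups (adjusted p = 0.50, limma). The other 4 kept probes were higher in Ts1Cje by 0.42 to 0.63, none of them called over all kept probes. The brightest probe holds a run of 13 TG or CA repeats in its 60 bases, and no other Itsn1 probe has more than 2 repeats in a row. With the mean of the 5 probes the Itsn1 difference was 0.35.

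Receptors of cytokines made up a further cluster of the segment, in which all 4 measured members were higher. Ifnar1 and Ifnar2 encode the 2 chains of the type I interferon receptor. Ifnar2 was at 1.81, 1.43, 1.58 and 1.42 in Ts1Cje and at 0.46, 0.82, 0.68 and 0.93 in WT, and rose by 0.83 ± 0.14 (adjusted p = 0.025, limma). Ifnar1 rose by 0.58 ± 0.09, from 0.72 ± 0.07 (SD, n = 4) to 1.3 ± 0.07, while its second kept probe differed by 0.06. Il10rb, a chain shared by receptors of the interleukin 10 family, and Ifngr2, a chain of the interferon gamma receptor, differed by 0.73 and 0.53 and were not called, each at an adjusted p of 0.084 (limma), with all Ts1Cje arrays above all WT arrays.

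Among the 9 enzymes and mitochondrial genes of the segment 4 rose, and the differences ran from 0.13 (Cbr1, overlapping groups) to 1.09 (Sod1). Gart, a multifunctional enzyme of purine synthesis, was at 1.20, 1.21, 1.32 and 1.21 in Ts1Cje and at 0.43, 0.66, 0.64 and 0.64 in WT, a difference of 0.64 ± 0.10 (adjusted p = 0.015, limma). Atp5o, a subunit of the stalk of the mitochondrial ATP synthase, was at 7.64, 7.77, 7.75 and 7.88 in Ts1Cje and at 6.90, 7.28, 7.17 and 7.08 in WT, a difference of 0.65 ± 0.10 (adjusted p = 0.022, limma). In both genes the groups did not overlap. Pigp, an enzyme of GPI anchor synthesis, rose by 0.63 ± 0.10, Psmg1, a chaperone of proteasome assembly, by 0.66 ± 0.11, and Cfap298, a protein of motile cilia, by 0.61 ± 0.10. The second kept probes of Gart, Pigp and Dop1b differed by 0.31, 0.34 and 0.17, less than the probes that stood for them. Sh3bgr, which is abundant in striated muscle, rose by 0.66 ± 0.11, from 6.67 ± 0.09 (SD, n = 4) to 7.32 ± 0.07. The remaining call of the segment, the uncharacterised transcript A930006K02Rik at chr16:91469535-91469594 (mm9), rose by 0.91 ± 0.16.

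The regulators of NFAT in the segment were higher but were not called. Dyrk1a was at 1.44, 1.83, 1.8 and 1.84 in Ts1Cje and at 0.83, 1.20, 0.90 and 0.43 in WT, a difference of 0.89 ± 0.21 (adjusted p = 0.16, limma). Its second kept probe differed by 0.89 too. Rcan1 was at 4.03, 5.12, 4.14 and 4.09 in Ts1Cje and at 3.99, 3.97, 3.77 and 3.08 in WT, a difference of 0.64 ± 0.32 (adjusted p = 0.39, limma). In both genes the groups did not overlap, and in Rcan1 the highest Ts1Cje and the lowest WT array each stood apart from their group. App, the amyloid precursor gene, lies on chromosome 16 before the segment, and it was at 4.26, 4.26, 4.48 and 4.2 in Ts1Cje and at 3.64, 4.11, 3.89 and 3.8 in WT, a difference of 0.44 ± 0.13 (adjusted p = 0.26, limma).

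**Figure D2:**
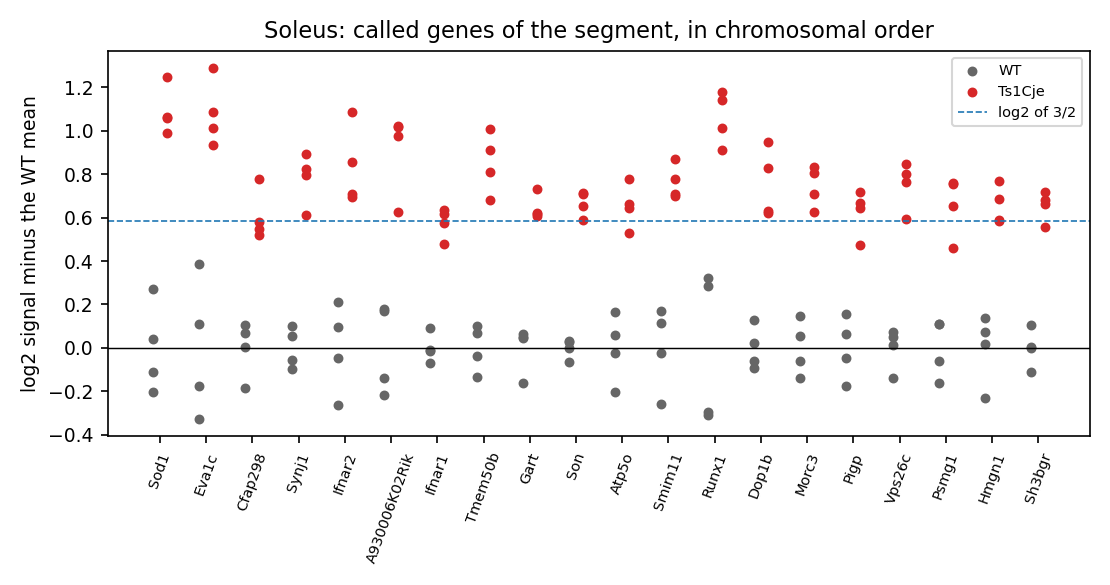
Each dot is 1 soleus array, for the 20 called genes of the segment in chromosomal order, with the log2 signal minus the mean of the 4 WT arrays on the vertical axis. Red dots (Ts1Cje) lie above the grey dots (WT) in every one of the 20 genes, and the dashed line marks 0.58, the log2 of 3/2.

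Not every gene of the segment was higher. Those below 0 were Get1 (-0.37), Itsn1 (-0.32), Gm10785 (-0.30), Lca5l (-0.29), Cldn14 (-0.28), Sim2 (-0.27), Gm7894 (-0.12), 2310043M15Rik (-0.11), Kcnj15 (-0.10), 1700093J21Rik (-0.08) and A630089N07Rik (-0.03), none of them called. The carbonyl reductases Cbr1 and Cbr3 differed by 0.13 ± 0.12 and 0.66 ± 0.19 between genotypes. Neither was called, and they were not tested against each other. Among the 35 segment genes with a WT mean at or above the 75th percentile, 16 rose and the median difference was 0.64, and among the 33 below it, 4 rose and the median was 0.46. The depth of the signal moved with the size of the difference, and its part was not tested. In all, 45 of the 68 genes were higher by at least 1.3-fold, 10 of them by more than 1.8-fold.

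**Figure D3:**
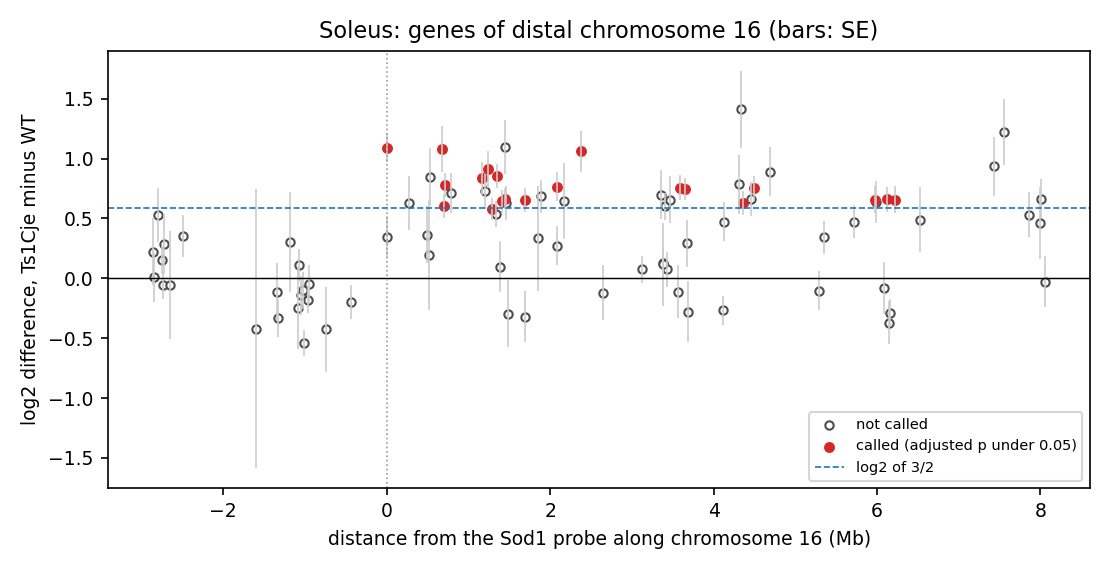
Points are the tested genes of distal chromosome 16, from more than 3 Mb before the Sod1 probe to the end. They are placed by distance from that probe in Mb, with the log2 difference in soleus and its SE on the vertical axis. Red points were called. Genes before Sod1 scatter around 0, with a median of -0.06 over the 21 genes of the last 3 Mb, and most genes from Sod1 onward lie near the dashed line at 0.58, with 11 below 0.

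The largest rise in the soleus was that of Dnah11, which encodes a heavy chain of the outer dynein arm of motile cilia. Dnah11 was at 4.29, 3.85, 4.58 and 3.78 in Ts1Cje and at -5.65, -5.33, -5.44 and -3.53 in WT. All 4 Ts1Cje arrays were well above background and 0 of the 4 WT arrays were, so the size is a bound: Dnah11 was at least 164-fold higher in Ts1Cje, with each WT array set to its own Dnah11 signal or, if higher, to the dimmest signal that counted as well above background there (adjusted p = 6.9e-08, limma). Its probe lies at chr12:119116456-119116515 (mm9), and in the EDL the only called gene of 14175 (0.00705%) was again Dnah11, with a fitted difference of 8.84. Of the other genes listed for the piece of chromosome 12 lost in this line, 2 were measured. Sp4, a zinc finger transcription factor, was at -1.07, -0.49, -0.87 and -1.18 in Ts1Cje and at -0.40, -0.38, -0.25 and -0.52 in WT, a difference of -0.52 ± 0.15 with overlapping groups (adjusted p = 0.24, limma). Sp8 differed by -0.18 (adjusted p = 0.78, limma).

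The other 4 genes that rose outside the segment lie on different chromosomes. Ppp1r35 on chromosome 5, a regulatory subunit of protein phosphatase 1 that works in centriole elongation, was at -0.38, 0.06, 0.17 and -0.07 in Ts1Cje and at -1.0, -0.82, -1.18 and -1.31 in WT, a difference of 1.02 ± 0.15 (adjusted p = 0.015, limma). Its groups were apart, and its EDL difference was 0.08. Mansc1 on chromosome 6 rose by 1.0 ± 0.18 (adjusted p = 0.046, limma), Vmac on chromosome 17, a protein associated with vimentin filaments, by 0.70 ± 0.11 (adjusted p = 0.025, limma), and Prpf40b on chromosome 15, a factor of pre-mRNA splicing, by 0.56 ± 0.10 (adjusted p = 0.039, limma). With the slide as a block Mansc1 and Vmac had adjusted p = 0.12 and 0.085, while Ppp1r35 and Prpf40b had 0.013 and 0.037 (limma).

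The genes that fell furthest were those of fast glycolytic fibres. Myh4, the heavy chain of the fastest myosin, was at 5.69, 7.07, 4.42 and 3.88 in Ts1Cje and at 9.67, 9.26, 9.83 and 8.79 in WT. The Ts1Cje arrays spread more widely than the WT arrays, with an SD of 1.42 against 0.46, and even the highest of them, replicate 2, lay below the lowest WT array. Myh4 fell by 4.12 ± 0.53 (17.4-fold, adjusted p = 0.0064, limma). Pvalb (parvalbumin), which buffers calcium in fast fibres, was at 6.42, 6.59, 6.93 and 6.72 in Ts1Cje and at 8.58, 8.57, 8.93 and 8.0 in WT, and fell by 1.86 ± 0.21 (3.63-fold, adjusted p = 0.0032, limma). Its second kept probe fell by 1.82. Actn3, the fast fibre alpha-actinin of the Z disc, was at 3.54, 3.93, 4.56 and 4.25 in Ts1Cje and at 6.39, 6.10, 6.45 and 5.13 in WT, and fell by 1.95 ± 0.28 (3.85-fold, adjusted p = 0.013, limma). Mybpc2, the fast form of myosin-binding protein C, had the same order of groups at 3.29, 3.85, 4.55 and 4.48 in Ts1Cje and 5.78, 5.83, 6.01 and 4.72 in WT, but its difference of -1.54 ± 0.31 was not called (adjusted p = 0.084, limma). WT replicate 4 was the lowest WT array in 6 of the 10 genes that fell, these 3 fast fibre genes among them. Without that array Myh4 and Pvalb were still called, as they were without each of the other 7. Actn3 was called in 6 of these 8 fits and had an adjusted p of 0.057 without WT replicate 1 and 0.061 without Ts1Cje replicate 2 (limma).

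The sequences that follow show where these measurements sit. The Actn3 probe is a single 60-base sequence matched to chr19:4861727-4862212 (mm9, minus strand), a span longer than the probe. The promoters are the 250 bases before the annotated start in RefSeq's GRCm38.p6 table, given for Myh4 and Pvalb, which fell, and for Myh1, a myosin gene of the same cluster that was not called. They are at chr11:67237562-67237811 (plus strand), chr15:78206401-78206650 (minus strand, the first of 2 starts listed) and chr11:67199852-67200101 (plus strand). Capitals mark matches to the MEF2 motif, searched on both strands; MEF2 is a family of transcription factors of muscle genes.
Actn3 probe: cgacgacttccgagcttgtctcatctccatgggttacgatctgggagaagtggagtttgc
Myh4 promoter: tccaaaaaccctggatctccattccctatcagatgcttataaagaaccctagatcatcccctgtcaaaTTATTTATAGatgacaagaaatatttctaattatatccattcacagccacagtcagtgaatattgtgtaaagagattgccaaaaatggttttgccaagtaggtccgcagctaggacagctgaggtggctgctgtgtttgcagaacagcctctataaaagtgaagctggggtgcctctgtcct
Pvalb promoter: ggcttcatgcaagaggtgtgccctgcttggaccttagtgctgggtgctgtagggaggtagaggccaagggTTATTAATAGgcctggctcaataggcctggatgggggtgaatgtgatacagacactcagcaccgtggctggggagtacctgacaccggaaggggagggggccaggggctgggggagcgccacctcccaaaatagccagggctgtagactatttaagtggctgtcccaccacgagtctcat
Myh1 promoter: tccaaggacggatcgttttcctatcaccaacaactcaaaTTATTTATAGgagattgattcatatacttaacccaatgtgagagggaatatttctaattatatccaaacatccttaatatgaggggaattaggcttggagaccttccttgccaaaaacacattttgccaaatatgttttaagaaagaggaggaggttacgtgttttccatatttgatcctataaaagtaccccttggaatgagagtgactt
Each of these 3 windows holds 1 match, which begins 182 bases before the start in Myh4, 180 in Pvalb and 211 in Myh1. The window of the second Pvalb start holds 0. Of all 32841 promoter windows of this length 2.92% hold at least 1 match, and the windows of Mybpc2, Tbata, Tlcd4, Myh2 and Myh7 hold 0. The match was thus present at a myosin gene that was not called as well as at Myh4.

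The myosin heavy chains Myh1, Myh2 and Myh7 were not called. Myh1 was at 8.80, 8.95, 8.95 and 8.99 in Ts1Cje and at 8.69, 9.50, 9.22 and 8.70 in WT (difference -0.10 ± 0.19). Myh2 was at 11.06, 10.48, 10.41 and 10.69 in Ts1Cje and at 10.65, 10.84, 10.59 and 10.85 in WT (difference -0.07 ± 0.42). Myh7, the slow myosin, was at 10.66, 10.18, 10.55 and 10.56 in Ts1Cje and at 10.35, 10.41, 10.08 and 10.38 in WT (difference 0.18 ± 1.11). The groups overlapped in all 3 genes. The standard error of Myh7 comes from all 14 arrays, and the 6 EDL arrays ranged from -0.02 to 6.44, against 10.08 to 10.66 on the 8 soleus arrays. The differences of the troponins Tnnt1 (slow) and Tnnt3 (fast) were 0.18 ± 0.55 and 0.03 ± 0.11, and that of the slow calcium pump Atp2a2 was 0.10 ± 0.48. The fast calcium pump Atp2a1 was at 6.83, 6.87, 6.10 and 6.20 in Ts1Cje and at 7.32, 6.70, 7.28 and 6.99 in WT, a difference of -0.57 ± 0.22 that was not called (adjusted p = 0.32, limma).

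**Figure D4:**
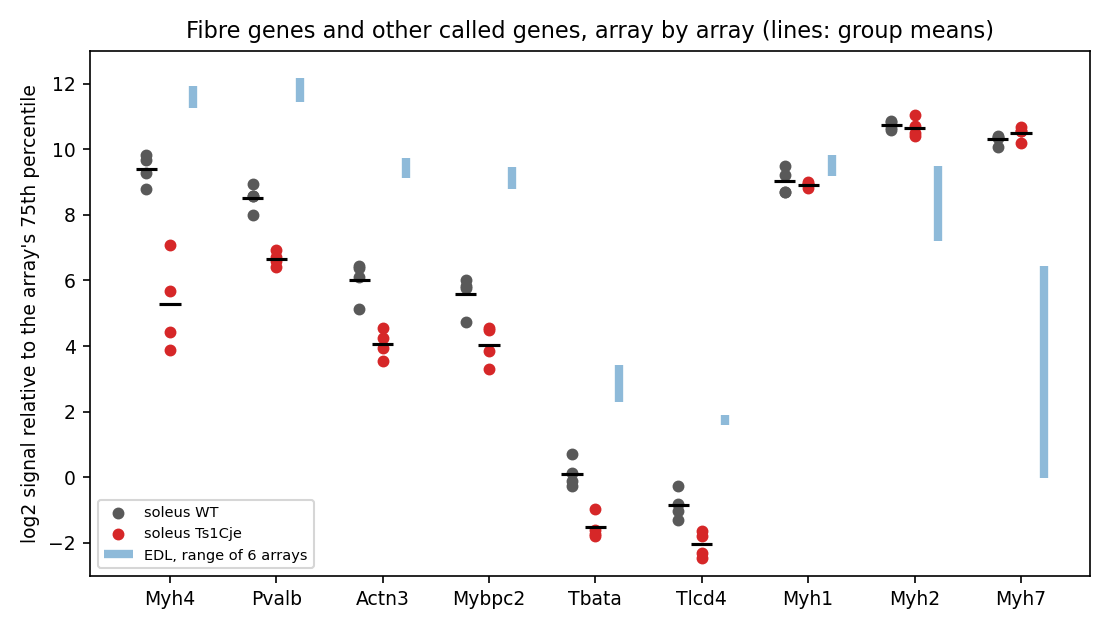
Dots are the 4 WT (grey) and 4 Ts1Cje (red) soleus arrays with their mean as a line, and blue bars are the range of the 6 EDL arrays, all as log2 signal relative to the 75th percentile. Red lies below grey without overlap from Myh4 to Tlcd4, where the EDL bar lies above both, and the groups overlap for Myh1, Myh2 and Myh7.

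The genes that fell were set beside the EDL. Myh4 ranged from 11.25 to 11.93 on the 6 EDL arrays, Pvalb from 11.43 to 12.16, Actn3 from 9.13 to 9.72 and Mybpc2 from 8.79 to 9.44. All of these lay above the 8 soleus arrays. The EDL arrays were all on the slide that held only Ts1Cje replicate 1 of the soleus, where Myh4 was at 5.69 and Pvalb at 6.42, so that slide and muscle otherwise cannot be told apart in these levels. Of the 10 genes that fell, 5 had every EDL array above every soleus array (14.6% of all genes did), and 7 had every EDL array above the 4 Ts1Cje soleus arrays (17.2% of all genes). The 10 genes were picked for low levels on those same 4 arrays, which favours the second count, so its share over all genes is not a like comparison. The EDL differences between genotypes were 0.03 for Myh4, 0.03 for Pvalb and 0.18 for Actn3. The effect of genotype in EDL minus that in soleus was 4.15 for Myh4 (unadjusted p = 0.00022, limma), 1.89 for Pvalb (4.9e-05) and 2.13 for Actn3 (0.00025). After adjustment over all genes 0 of 14175 passed for this difference (lowest adjusted p = 0.69, limma), with 454 (3.2%) at an unadjusted p under 0.05, so a difference between the muscles was not shown for any gene. Without Ts1Cje replicate 2, Myh4 alone passed (4.75, adjusted p = 0.032, limma).

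Tbata and Tlcd4 had the same order of levels as the fast fibre genes. Tbata, named for its expression in thymus, brain and testis, was at -1.8, -1.74, -1.61 and -0.97 in Ts1Cje, at 0.12, -0.11, 0.72 and -0.28 in WT, and between 2.31 and 3.42 in the EDL. It fell by 1.64 ± 0.29 (adjusted p = 0.041, limma), while its other 2 kept probes differed by -0.24 and -0.19. Tlcd4, a membrane protein of the TLC domain family, was at -2.3, -1.79, -1.63 and -2.46 in Ts1Cje, at -1.04, -0.81, -0.27 and -1.3 in WT, and between 1.61 and 1.91 in the EDL, and fell by 1.19 ± 0.22 (adjusted p = 0.049, limma). Neither gene's groups overlapped, and each was called in 1 of the 8 fits with an array left out.

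The other falls were in genes of low signal. Pla2g1b, a secreted phospholipase A2 of the pancreas, fell by 1.0 ± 0.16 and was well above background on 1 of 4 Ts1Cje and 4 of 4 WT arrays. Apol7a, of the apolipoprotein L family, fell by 0.97 ± 0.16, and Vmn2r111, a vomeronasal receptor, by 0.72 ± 0.11. Nabp1, a single-stranded DNA binding protein of the DNA damage response, fell by 0.83 ± 0.15 and was well above background on only 1 Ts1Cje and 2 WT arrays. The highest level of these 4 genes on any soleus array was -1.35, that of Vmn2r111 in WT replicate 3, and Nabp1 was called in 0 of the 8 fits with an array left out. The normexp background correction, whose offset of 50 intensity units draws dim probes together by its construction, gave smaller differences for dim genes without a call, with Ppp1r35 at 0.53, Runx1 at 0.26, Eva1c at 0.35, Mansc1 at 0.24, Tbata at -0.81, Tlcd4 at -0.47 and Pla2g1b at -0.21. It also ended the calls of brighter genes whose differences stayed near their size, namely Son (0.70, adjusted p = 0.058), Atp5o (0.68, 0.11), Pigp (0.69, 0.076), Smim11 (0.78, 0.096) and Cfap298 (0.57, 0.14; limma). Under it Myh4, Pvalb and Actn3 kept their calls, at -4.1, -1.81 and -1.85. The gene model Gm5608 at chr8:13537685-13537744 (mm9) fell by 1.26 ± 0.22 from a higher level, 0.66 ± 0.32 (SD, n = 4) in WT.

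Just outside the threshold, 10 genes had the smallest p without a call. Those higher in Ts1Cje were H2-Ke6 (0.46 ± 0.08, adjusted p = 0.054), Gatd1 (0.70 ± 0.13), the segment transcript LOC102641578 (0.60 ± 0.11), Icosl (0.69 ± 0.13), Tmem167b (0.67 ± 0.13), Blvrb (0.69 ± 0.14) and Uevld (0.85 ± 0.17, adjusted p = 0.084, limma). Those lower were Mybpc2, Olfr1221 (-1.13 ± 0.22) and Zfp229 (-0.74 ± 0.15). In each of the 10 genes the arrays of the genotypes did not overlap, which the choice by smallest p favours. Blvrb reduces biliverdin, and Icosl is a ligand that costimulates T cells.

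Probes without a gene symbol were tested in a further fit of all 25190 kept probes, in which 41 were called (0.163%) and 9 of them had no symbol. Of these 9 probes 5 fell and 4 rose. The lincRNA probe at chr9:20323037-20323096 (mm9) fell by 1.72 ± 0.22 (adjusted p = 0.0084, limma) and ranged from 6.74 to 7.71 in the EDL, against a mean of 1.85 in Ts1Cje and 3.56 in WT soleus. The lincRNA probe at chr15:77173705-77173764 fell by 1.39 ± 0.24 and ranged from 2.65 to 3.86 in the EDL, with means of -0.66 in Ts1Cje and 0.73 in WT soleus. The lincRNA probe at chr7:111530579-111530638 fell by 1.32 ± 0.23 and ranged from -1.04 to -0.021 in the EDL, with means of -3.99 in Ts1Cje and -2.67 in WT soleus. These 3 probes had the order of levels of Myh4 and Pvalb, with Ts1Cje soleus lowest and EDL highest. Of all genes tested, 14.6% had every EDL array above every soleus array. The other 2 probes that fell did not have that order. The probe at chr11:97506473-97506532 fell by 0.84 ± 0.11. It ranged from -1.02 to -0.25 in the EDL, with means of -0.88 in Ts1Cje and -0.034 in WT soleus. The probe at chr6:12072620-12072679 fell by 0.75 ± 0.12. Its EDL range was -1.76 to -1.42, with means of -1.61 in Ts1Cje and -0.86 in WT soleus.

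Among the 4 unnamed probes that rose, the probe at chr6:67156068-67156127 rose by 1.06 ± 0.11 and shares a run of 37 bases with the Sod1 probe, and the probe at chr12:77252533-77252592 rose by 0.75 ± 0.11 and shares 26 bases with the Hmgn1 probe. Whether these probes read Sod1 or Hmgn1 transcripts was not tested. The probe at chr11:104431986-104432045 rose by 0.65 ± 0.11. Of the unnamed probes that fell, the one with the smallest p is printed here, since no gene name identifies it.
chr9 lincRNA probe: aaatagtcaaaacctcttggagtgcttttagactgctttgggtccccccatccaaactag

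Lists of genes by function were read beside all genes, of which 62.7% were higher with a median of 0.07. Of 22 fast fibre genes 3 fell (0.0705% of all genes did), 0 rose, 18 were lower and the median was -0.15. The quartiles of this list were -0.35 and -0.07, so the large falls were those of a few members. In 4 of the 22 the Ts1Cje arrays lay below all WT arrays (2.29% of all genes did). Of 18 slow fibre genes all were above 0, with a median of 0.24, and 0 were called. In 5 of them the Ts1Cje arrays lay above all WT arrays (6.1% of all genes did). The SE comes from all 14 arrays, and its median was 0.48 in this list against 0.156 over all genes. The lack of calls therefore says little about the slow fibre list. Sarcolipin (Sln), which inhibits the calcium pump, was at 7.43, 7.28, 7.4 and 7.33 in Ts1Cje and at 6.57, 6.04, 5.22 and 5.59 in WT, a difference of 1.5 ± 0.48 (adjusted p = 0.28, limma). The slow light chain Myl6b was at 6.84, 5.71, 6.09 and 5.96 in Ts1Cje and at 5.42, 5.37, 4.26 and 5.39 in WT, a difference of 1.04 ± 0.28 (adjusted p = 0.23, limma). Neither gene's groups overlapped. In the fit over the 8 soleus arrays alone, which leaves out the spread of the EDL arrays, Sln had an adjusted p of 0.094 and Myl6b one of 0.29 (limma). The label of the muscle was borne out by Myh7 and by Tnnt1, which was at 10.18 to 10.85 on the 8 soleus arrays and at 3.92 to 6.84 in the EDL.

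In the calcium handling list Pvalb fell and the other 16 of 17 genes were not called, with a median of -0.06. The next lowest, Mss51, differed by -1.46 ± 1.04 with groups that did not overlap, and the junctophilin Jph2, which joins the T-tubule to the calcium store, differed by -0.58 ± 0.20. In the calcineurin and NFAT list 14 of 19 genes were higher with a median of 0.13 and 0 called. Besides Dyrk1a, its relative Dyrk1b was at 2.01, 1.99, 2.31 and 1.91 in Ts1Cje and at 1.41, 1.53, 1.39 and 1.56 in WT, a difference of 0.58 ± 0.14 (adjusted p = 0.17, limma). Its groups did not overlap, and it lies on chromosome 7. In the list of neuromuscular junction and denervation genes Runx1 rose and the others were not called; the median over 21 genes was 0.15, but it ranged from -0.07 to 0.17 over the alternatives. Myog, the transcription factor myogenin, differed by 0.72 ± 0.26 and Ache, the acetylcholinesterase, by -0.66, both without a call.

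Interferon-stimulated genes were higher in 31 of 34 with a median of 0.37, and 0 were called. Their summed level overlapped between genotypes, at 5.99 to 6.74 in Ts1Cje and 5.78 to 6.08 in WT. Oas2, a sensor of double-stranded RNA, was at 1.41, 1.08, 1.29 and 1.27 in Ts1Cje and at 0.63, 0.74, 0.10 and 0.71 in WT, a difference of 0.72 ± 0.19 (adjusted p = 0.20, limma). Parp9, an ADP-ribosyltransferase of the interferon response, was at 1.40, 1.22, 1.48 and 1.09 in Ts1Cje and at 0.81, 0.95, 0.85 and 0.97 in WT, a difference of 0.40 ± 0.10 (adjusted p = 0.19, limma). In 6 of the 34 genes the Ts1Cje arrays lay above all WT arrays (6.1% of all genes did). None of the 34 lies in the segment. The macrophage markers were higher in 7 of 7 with a median of 0.17, and their summed level was 4.54 to 5.04 in Ts1Cje and 4.42 to 4.63 in WT; the part of these cells in the interferon list was not tested.

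In the lists of energy metabolism the only call was Atp5o of the segment, and the medians ran from -0.11 to 0.13. Of 36 complex I genes 32 were higher with a median of 0.12 and 0 called, and the smallest p were those of Ndufb7 (0.34 ± 0.10) and Ndufs5 (0.23 ± 0.10). In complexes II to V 1 of 39 genes was called and the median was 0.12. The citric acid cycle median was 0.07 over 16 genes, with Dlst at 0.27 ± 0.09 and Idh3b at -0.17 ± 0.09, and that of fatty acid uptake and oxidation 0.13 over 26, with Hadh at 0.33 ± 0.12 and Etfb at 0.25 ± 0.11. Glycolysis and glycogen genes had a median of -0.11, with 14 of 23 lower and 0 called; Phkb and Phkg1, subunits of the phosphorylase kinase that starts glycogen breakdown, differed by -0.56 ± 0.15 and -0.36 ± 0.12. Ppargc1a, a coactivator of mitochondrial genes, was at 2.44, 4.01, 2.71 and 3.02 in Ts1Cje and at 3.72, 2.79, 2.89 and 2.40 in WT, with overlapping groups and a difference of 0.09 ± 0.35.

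In the lists of protein and stress handling the only call was Sod1 of the segment. All 19 heat shock genes were above 0 with a median of 0.19, among them Bag3 (0.36 ± 0.14) and Hsp90ab1 (0.23 ± 0.09). Of 31 proteasome genes 28 were higher with a median of 0.16 (Psma3 at 0.29 ± 0.09 and Psmd2 at 0.25 ± 0.10). In 8 of the 31 the Ts1Cje arrays lay above all WT arrays, a larger share than the 6.1% of all genes. Of 23 antioxidant genes Sod1 was the only call, 21 were higher and the median was 0.17; Gsr, the glutathione reductase, differed by 0.38 ± 0.12. The atrophy list had a median of 0.06 with 0 of 19 called (Map1lc3a at 0.27 ± 0.13 and Ddit4 at 0.97 ± 0.61), and the satellite cell list one of 0.19 with 0 of 13 called (Itga7 at 0.26 ± 0.15). The immediate early and circadian lists had medians of -0.05 and 0.09 and 0 calls, with Jund at 0.44 ± 0.17, Fosb at -0.33 ± 0.22, Cry2 at 0.36 ± 0.13 and Nr1d2 at 0.23 ± 0.14.

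Markers of other cell types gave 0 calls. Adipocyte markers were higher in 5 of 5 with a median of 0.65, but their summed level overlapped, at 7.07 to 7.83 in Ts1Cje and 6.67 to 7.41 in WT. Fabp4, the fatty acid binding protein of fat and capillaries, was at 7.09, 6.92, 7.04 and 6.68 in Ts1Cje and at 6.44, 6.57, 6.61 and 6.54 in WT, a difference of 0.39 ± 0.10 (adjusted p = 0.20, limma). Red blood cell markers had a median of 0.39 over 4 genes and a summed level of 6.81 to 7.12 in Ts1Cje and 6.28 to 6.51 in WT, with no overlap. Schwann cell, tendon, fibroblast and endothelium lists had medians of 0.19, 0.20, 0.07 and -0.11, of which the first 3 turned below 0 under some alternative (lowest -0.018, -0.21 and -0.11), and lymphocyte, skin and neutrophil lists, with 3, 3 and 2 measured genes, had -0.20, -0.22 and -0.46. Collagen and matrix genes were higher in 23 of 26 with a median of 0.17 (0.0067 to 0.31 over the alternatives) and 0 called; Lamb1 and Col14a1 differed by 0.36 ± 0.17 and 0.50 ± 0.26, and both were highest on Ts1Cje replicate 1, the array of the other slide, without which they differed by 0.17 and 0.24. The part of these cell types in the calls was not tested.

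**Figure D5:**
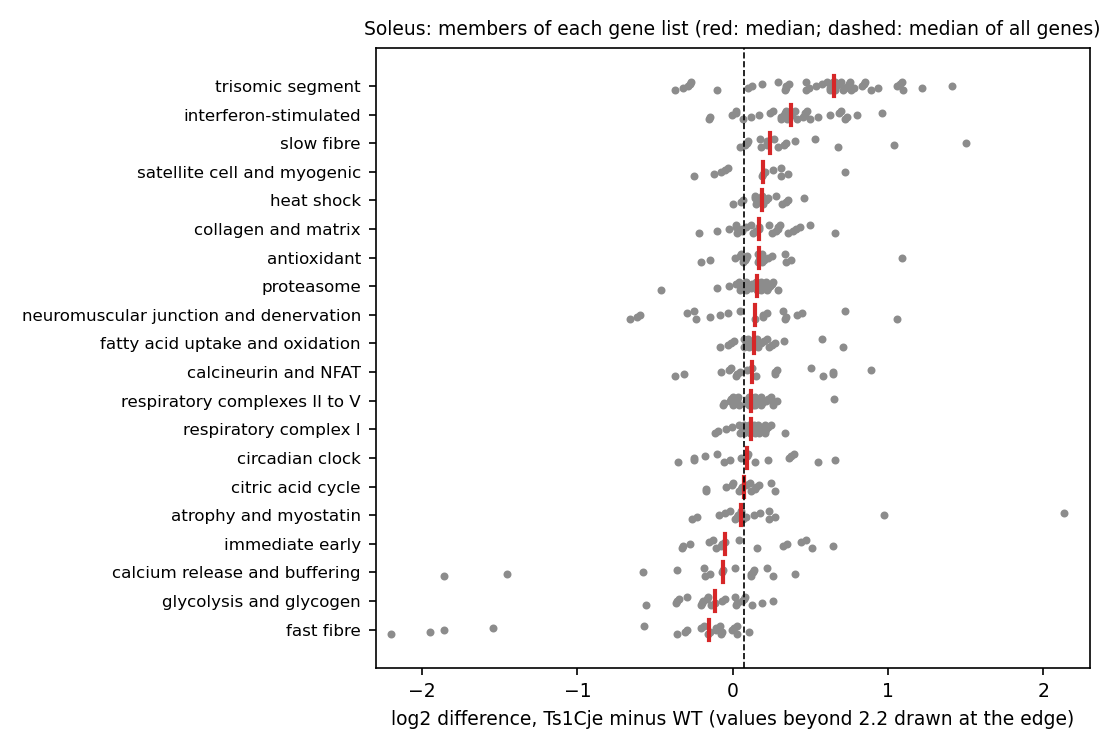
Grey dots are the genes of each list with at least 13 measured members, red bars their median log2 difference in soleus, and the dashed line the median of all genes at 0.07; the vertical order follows the medians. The segment list lies highest at 0.65, the interferon list next at 0.37 and the fast fibre list lowest at -0.15, where Myh4 at -4.12 is drawn at the left edge.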

How the data were processed

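Per the labels, 25 ng of total RNA was the input to Cy3 labelling for each 1-colour Agilent array. The authors deposited scanner files of Agilent Feature Extraction (9.1 per the submitters' processing notes; the file headers give 11.5.1.1) with processed intensity values, background-subtracted and not normalized between arrays. The authors' deposited table holds log2 values, which matched log2 intensity minus each array's 75th percentile, less the probe's median over 14 arrays (r of at least 0.999998). The deposited flags were other columns of 0 or 1 per spot, per the file headers.

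Spots of a probe were averaged without outliers, each array's 75th percentile was subtracted from its log2 signals, and the 25190 of 55681 probes kept were those that all arrays of some group measured well above background. The brightest kept probe stood for a gene, which gave 14175 genes, 3559 of them with several kept probes. limma 3.58.1 in R 4.3.3 fitted 1 mean per group to all 14 arrays (10 residual and 2.804 prior degrees of freedom; two-sided). The median SE in the soleus was 0.156, and precision is limited by how many arrays there were; p-values measure only the spread between these samples, part of which may be technical. Alternatives changed the background correction, normalization, filter, probe rule, variance model, blocks and arrays used. The fit was tested on simulated data.

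The comparison, the 32 gene lists (529 of 574 genes tested) and the rule for named genes were chosen with earlier results of these data known. The rule took every called gene, the next 10 by p, 16 fixed genes and the 2 genes of smallest p in each list that is not a cell type's markers. Mstn, Itsn1, Fabp4, Sp8 and the other segment, list and unnamed members named beside them were picked after their values were seen. The normexp alternative used the median spot signal. Of the 35 called genes 31 had a promoter in the RefSeq table. Of the called probes without a symbol, 1 is not reported here.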

Additional observations from a re-analysis of the deposited data

Results flagged for a closer look

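Of 186 groups of 4 arrays examined (93 genes in each genotype), 14 held an array far from the other 3; chance gives about 1 in 20. None of these values was weighed for a cause. Among called genes, Dnah11 was at -3.53 in WT replicate 4, above the other WT arrays but not well above background. Gart was at 1.32 in Ts1Cje replicate 3, the highest of its group, and at 0.43 in WT replicate 1, the lowest. The transcript A930006K02Rik was lowest in Ts1Cje replicate 3, at -1.67. Gm5608 was lowest in replicate 3 of both genotypes, at -1.17 in Ts1Cje and 0.18 in WT.

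Among genes that were not called, the segment transcript LOC102641578 was highest in WT replicate 4 at 0.85, Dyrk1a was lowest in Ts1Cje replicate 1 at 1.44, and Rcan1 was highest in Ts1Cje replicate 2 at 5.12. In fibre genes, Tnnt3 was lowest in Ts1Cje replicate 4 at 9.98 and Myl6b lowest in WT replicate 3 at 4.26. Hsp90ab1 was highest in WT replicate 2 at 7.70, and Col14a1 was lowest in the same array at 0.61.

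Mstn, which encodes myostatin, was at 6.66 in Ts1Cje replicate 1 and at -2.76, -3.04 and -3.41 in the other Ts1Cje arrays. Without that array its difference changed from 2.13 to -0.30.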

How the results depend on the processing

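The difference kept its sign in each called gene under every alternative in which it was fitted, while the number of calls (25 higher, 10 lower) moved with the setting. In the fits that left out 1 array or took the slide as a block the sign could not turn, since no called gene had overlapping groups. Of 727 values for called genes over the alternatives, 344 stayed past the threshold and 383 did not. Normexp background gave 12 higher and 3 lower, no filter on dim probes 4 and 2, the slide as a block 14 and 4, soleus arrays alone 2 and 2, and slide 2 alone 1 and 0. Lower calls were 6 with the mean of a gene's probes and 6 with a trended robust variance. Leaving out 1 soleus array gave 8 to 21 higher (fewest without WT replicate 1) and 2 to 11 lower (fewest without WT replicate 1 or Ts1Cje replicate 2), and 10 genes were called in all 8 such fits. For the difference between muscles it gave 0 to 1. Testing every kept probe, chosen after seeing the data, called 41. The cause of these changes was not tested.

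With the replicate block 3 genes were called higher and 4 lower, and in the soleus alone with that block 1 and 0 (1344 at an unadjusted p under 0.05). Same-numbered arrays did not deviate together (r of -0.12, -0.29, 0.01 and -0.14, while arrays of different numbers reached 0.43, for Ts1Cje replicate 2 with WT replicate 1), so the numbers were not taken as pairs.

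The sign turned in these genes, none called. Over the fits with 1 array left out, Myh2 ranged from -0.20 to 0.010 (above 0 without Ts1Cje replicate 3), Myh1 from -0.22 to 0.054 (above 0 without WT replicate 2), Tnnt3 from -0.016 to 0.077 (below 0 without WT replicate 4), Kdm5c from -0.070 to 0.018 (above 0 without Ts1Cje replicate 3) and Ppargc1a down to -0.23 without Ts1Cje replicate 2 and -0.089 without WT replicate 4. Mstn ranged from -0.30 to 3.06, and it was at -0.30 without Ts1Cje replicate 1, with the slide as a block and within slide 2. Myh2 was at 0.0039 with quantile normalization. With the mean of the kept probes Atp2a2 was at -0.14, Cry2 at -0.028 and Itsn1 at 0.35. The medians of 11 of the 32 gene lists changed sign under some alternative: chromosome 12, citric acid cycle, calcium, neuromuscular junction, atrophy, immediate early, circadian, sex-linked, fibroblast, Schwann cell and tendon. Signal over background limits genes such as Nabp1 and Pla2g1b, which some arrays did not measure well above it.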
